A study of Mus musculus with 6 samples.

Results

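Accessible chromatin was examined at 5 loci that are named after inflammatory genes of macrophages, Il1b, Tnf, Nos2, Il6 and Ccl2. The members are the accessible sites of the deposited table that lie inside 5 fixed windows of the mm9 mouse genome. These are chr2:129140000-129250000 (Il1b), chr17:35290000-35390000 (Tnf), chr11:78680000-78830000 (Nos2), chr5:30280000-30400000 (Il6) and chr11:81790000-81910000 (Ccl2). They held 179 of the 578591 sites of the table, 37 at Il1b, 35 at Tnf, 27 at Nos2, 37 at Il6 and 43 at Ccl2. A further site crosses the border of the Il6 window and was not counted. The positions chose the members and no measured value entered the rule, but the loci were chosen with earlier results of these data known.

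The assay was ATAC-seq, which marks open DNA by the adapters a transposase inserts there, and the cells were bone marrow-derived macrophages (BMDMs) of wild-type mice, given as C57BL/6 for the samples and as C57BL/6J in the protocol. Bone marrow cells were differentiated in medium conditioned by L929 cells, a fibroblast line that secretes MCSF, so every group had met this growth factor before its treatment. There were 6 groups of 1 library each: Untreated and IL-4, the vehicle as DMSO and as DMSO + IL-4, and the treatments latrunculin A with IL-4 (LatA + IL-4) and MCSF with IL-4 (MCSF + IL-4). Where 6 values follow each other below, they stand in this order. IL-4 was given for 24 h at 20 ng/ml, latrunculin A at 1 μM and MCSF (CSF1) at 100 ng/ml. There were no replicates, so no difference below has a test, and each ratio compares 2 libraries. The number of mice behind a library is not given in the sources used here.

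IL-1β, TNF and IL-6 are secreted cytokines that macrophages make after microbial or tissue injury signals, largely through the transcription factor NF-kB. Nos2 encodes inducible nitric oxide synthase, the textbook enzyme of classically activated macrophages, and Ccl2 encodes the chemokine that draws monocytes through the receptor CCR2. IL-4 acts through STAT6 and drives the alternative, repair-associated state, in which the classical inflammatory genes are often held down. Latrunculin A blocks actin polymerization, and MCSF is the growth factor that keeps macrophages alive and spread. The loci also hold neighbours. In the RefSeq gene table of GRCm38.p6 the nearest protein-coding genes on either side are Il1a and F830045P16Rik for Il1b, Ltb and Lta for Tnf, Lyrm9 and Lgals9 for Nos2, Dnajb6 and Tyms for Il6, and 1700071K01Rik and Ccl7 for Ccl2. Ccl7 encodes another monocyte chemokine, and Ltb and Lta encode lymphotoxins, relatives of TNF.

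Promoter sequence from RefSeq (GRCm38.p6) was matched by gene symbol for 3 of the 5 genes, Il1b, Tnf and Il6, and not for Nos2 and Ccl2. The 250 bases before the gene start are shown 5′ to 3′ on the strand of the gene because these loci are textbook targets of NF-kB. Capitals mark the letters GGNNNTTCC, a part of the NF-kB motif, searched on both strands.
Il1b promoter, GRCm38.p6 chr2:129371140-129371389, minus strand: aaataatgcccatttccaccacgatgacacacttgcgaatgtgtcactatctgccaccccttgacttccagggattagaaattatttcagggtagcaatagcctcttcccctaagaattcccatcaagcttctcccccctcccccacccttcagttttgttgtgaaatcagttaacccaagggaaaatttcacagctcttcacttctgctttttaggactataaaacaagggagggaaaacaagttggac
Tnf promoter, GRCm38.p6 chr17:35202008-35202257, minus strand: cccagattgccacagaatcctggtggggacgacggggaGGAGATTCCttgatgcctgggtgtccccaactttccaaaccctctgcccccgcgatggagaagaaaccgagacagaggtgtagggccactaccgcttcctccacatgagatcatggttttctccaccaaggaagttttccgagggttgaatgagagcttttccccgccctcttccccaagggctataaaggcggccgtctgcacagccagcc
Il6 promoter, GRCm38.p6 chr5:30012864-30013113, plus strand: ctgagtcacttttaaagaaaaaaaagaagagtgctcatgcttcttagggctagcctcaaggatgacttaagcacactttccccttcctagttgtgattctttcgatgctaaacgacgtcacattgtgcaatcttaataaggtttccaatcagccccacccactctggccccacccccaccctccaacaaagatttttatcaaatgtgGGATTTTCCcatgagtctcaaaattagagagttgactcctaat

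These letters occurred 212 to 204 bases before the Tnf start and 43 to 35 bases before the Il6 start, and not in the Il1b window. They occurred in 15.7% of all 32851 promoter windows of this length. The TATA box letters TATAAA lay 31 to 26 bases before the Il1b start and 29 to 24 bases before the Tnf start, and were in 12.4% of all windows. The Il6 window also held the AP-1 letters TGANTCA at 249 to 243 bases (6.75% of all windows) and the C/EBP letters TTGCNNAA on the opposite strand at 128 to 121 bases (9.56%). None of these matches overlapped another. The sites below are placed in mm9, and these promoters in another build, so no site was assigned to a promoter, exon or intron. A match is a description of the letters only.

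Reads per site were scaled to a common library size and are called normalized reads. Reads in sites numbered 12387332 to 19889902 per library. Of the 179 sites, 59 averaged 20 or more normalized reads and were compared, 9 at Il1b, 15 at Tnf, 6 at Nos2, 13 at Il6 and 16 at Ccl2. After 1 read was added to both libraries, sites that differed by more than 1.5-fold in normalized reads were called higher or lower. Over all loci of the genome, 132057 sites were compared in the same way. The other 120 member sites were weak, with a median of 6.57 (Nos2) to 10.4 (Il6) mean normalized reads. Intervals of 95% are exact for the counting error of independent reads and cover no difference between libraries. Reads are not independent molecules, so the intervals may be too narrow even for counting error. The labelled cell type was not checked against marker genes, because the table names no genes.

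The loci differed in how far the 6 libraries lay apart. Summed over all its sites, Il6 was the most even locus, with 722 normalized reads in Untreated and 737 in IL-4, 714 in DMSO and 763 with IL-4 added, 931 with latrunculin A and 838 with MCSF, a 1.30-fold range. At Ccl2 the sums were 753, 997, 900, 1167, 1696 and 2928 in the same order of libraries, a 3.89-fold range. The Tnf sums were 754, 647, 968, 704, 1504 and 1235, the Il1b sums were 585, 633, 673, 722, 1036 and 936, and the Nos2 sums were 363, 365, 480, 420, 640 and 481. At each of the 5 loci the LatA + IL-4 and MCSF + IL-4 libraries held the highest sums, with MCSF + IL-4 first at Ccl2 and LatA + IL-4 first at the other four. At Nos2 the sums of MCSF + IL-4 and DMSO differed by little, 481 against 480. Both treated libraries were above all 4 others at 30 of the 59 compared sites, and at 30.1% of the compared sites of the whole table.

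**Figure D1:**
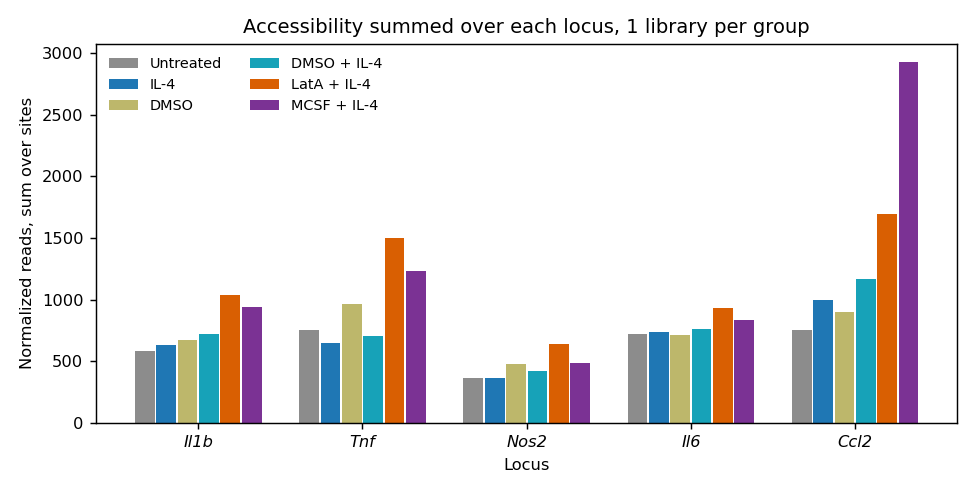
Bars give the normalized reads summed over all sites of each locus (y axis, from 0) for the 6 libraries (colours), 1 library per group and therefore no error bars. The MCSF + IL-4 bar at Ccl2 reaches 2928 normalized reads, while the 6 bars at Il6 lie between 714 and 931.

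Latrunculin A and MCSF were compared with their IL-4 controls to ask how far a disrupted cytoskeleton and added growth factor change open chromatin once IL-4 is present. Of the 59 compared sites, 31 were higher and 6 lower in LatA + IL-4 than in DMSO + IL-4, against 30.1% higher and 15.7% lower in the whole table. In MCSF + IL-4, 42 were higher and 0 lower than in IL-4, against 29.2% higher and 14.9% lower. No test could be run on that count of 0, since each group is 1 library. With no filter on reads, 25 of the 179 sites were lower with MCSF, against 27.1% of the whole table, and scaling by total reads made 1 of the compared sites lower. With the controls exchanged, 3 compared sites were lower with MCSF (2 at Il6 and 1 at Il1b) and 2 with latrunculin A, against 15% and 16%. These comparisons share no library, and 24 of the 59 sites were higher in both, against 15.4% of all compared sites. None of the 59 was lower in both, against 4.36%. In the whole table the median log2 ratio grew with the number of reads, from 0.04 at sites of 20 to 50 reads to 0.56 at sites of at least 100 reads for latrunculin A, and from 0.01 to 0.59 for MCSF. Counts with this trend removed are therefore given beside the others below. Locus ratios carry the trend too, and those that moved without it are given under the processing.

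The Ccl2 locus had the largest difference of the 5, and it came with MCSF. Summed over its 43 sites it held 2.94-fold more normalized reads in MCSF + IL-4 than in IL-4 (95% interval 2.73 to 3.16; 2500 against 1016 reads). All 16 compared sites were called higher, with log2 ratios from 0.68 to 4.23 and a median of 1.47, against a median of 0.16 over all compared sites. Some of these sites passed the filter on reads only through the MCSF + IL-4 library, which forces them to be high there. When the filter was applied to the 4 libraries outside the comparison, 13 of 14 sites were higher, against 27.4% of the whole table. With no filter at all, 33 of the 43 sites were higher and 2 lower, against 27.5% and 27.1% of the whole table. With the trend removed, 12 of 16 were higher, against 19.5%. With DMSO + IL-4 as the control, 14 of 16 were higher, against 24.9%.

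Among the compared sites, the 6 with the largest ratios for MCSF lay close together, at chr11:81850044-81861914. This stretch of 11.9 kb runs from the first to the last compared site above 3-fold with 1 read added, and it was chosen after the values were seen. The next compared site, at chr11:81846207-81846453, had a ratio of 3.01 with no read added and lies outside. Weak sites below the filter had large ratios elsewhere in the locus too, such as 17.9 (4.54 to 155) at chr11:81843643-81843900, on 30 against 2 reads. The 8 sites of the stretch, 6 of them compared, held 953 reads in MCSF + IL-4. They held 86 in Untreated and 166 in IL-4, 93 in DMSO and 151 with IL-4 added, and 231 with latrunculin A. In normalized reads this was 1116 against 63.6, 163, 83.7, 187 and 244. MCSF + IL-4 was far above all others, with a ratio to IL-4 of 6.85 (5.80 to 8.13), while the ratio of LatA + IL-4 to DMSO + IL-4 was 1.30 (1.06 to 1.61). In the other 35 sites of the locus MCSF + IL-4 had a ratio of 2.17 (2.00 to 2.36) to IL-4, and LatA + IL-4 one of 1.48 (1.36 to 1.62) to DMSO + IL-4. In the peaks called by the authors in each library, the stretch held 7 peaks covering 4208 bp in MCSF + IL-4, against 1 peak of 252 bp in Untreated and 4 of 1198 bp in IL-4, 2 of 615 bp in DMSO and 5 of 1345 bp with IL-4 added, and 4 of 1266 bp with latrunculin A. The highest fold enrichment of these peaks over the local background did not follow this order, with 5.99 in MCSF + IL-4, 5.39 in Untreated and 7.5 to 9.95 in the others. Peaks come from the same reads and are not independent of them, and their numbers over the whole libraries are not given here.

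Within the stretch, 2 neighbouring sites were nearly closed in every library but MCSF + IL-4. They were picked for these values and passed the filter only through MCSF + IL-4, so the values are a description. The site at chr11:81850044-81850526 had 2 reads in Untreated, 5 with IL-4, 3 in DMSO and 8 with IL-4 added, 3 with latrunculin A and 94 with MCSF. Its ratio of MCSF + IL-4 to IL-4 was 22.4 (9.28 to 70.7). The site at chr11:81850993-81851375 had 3, 6, 2, 8, 4 and 87 reads in the same order, a ratio of 17.3 (7.64 to 48.4). Next to them, chr11:81851506-81852210, which also passed only through MCSF + IL-4, had 8, 15, 3, 9, 24 and 120 reads, with ratios of 9.55 (5.56 to 17.6) for MCSF and 2.27 (1.02 to 5.55) for latrunculin A. At the first of these sites the log2 ratio for latrunculin A was −1.39 on 3 against 8 reads, and at the second −1.06 on 4 against 8. Such low counts leave both intervals across 1 (0.0546 to 1.33 and 0.0939 to 1.59), so no difference with latrunculin A was detectable there at this depth.

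The widest Ccl2 site, at chr11:81860317-81861914, differed both with IL-4 and with MCSF. It had 11.1 normalized reads in Untreated and 15.3 in DMSO, 48.1 in IL-4 and 55.7 in DMSO + IL-4, 48.5 with latrunculin A and 377 with MCSF. The libraries fell into 3 levels, lowest without IL-4, intermediate with IL-4 and highest with MCSF in addition. The IL-4 ratio was 4.33 (2.39 to 8.32) without vehicle and 3.64 (2.04 to 6.78) with DMSO. With MCSF the ratio was 7.84 (5.79 to 10.8), and with latrunculin A it was 0.871 (0.565 to 1.34), an interval that holds 1. No peak was called there in Untreated or DMSO.

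The 3 sites of the locus with the highest mean reads varied less. The site at chr11:81848624-81849286 had 126, 133, 157, 161, 232 and 217 normalized reads. It lies just before the stretch, was open in all 6 libraries, and had ratios of 1.62 (1.29 to 2.04) with MCSF and 1.44 (1.16 to 1.81) with latrunculin A. The site at chr11:81820271-81820967 had 120, 107, 146, 140, 201 and 293 normalized reads, with a ratio of 2.74 (2.18 to 3.46) for MCSF. The site at chr11:81818187-81818725 had 91.0, 104, 112, 99.0, 155 and 168. The site at chr11:81828641-81829005 was the Ccl2 site with the largest ratio shared by both treatments. It had 20.0, 32.4, 31.5, 34.7, 88.6 and 92.5 normalized reads, so the treated libraries did not overlap the others, with ratios of 2.56 (1.65 to 4.07) for latrunculin A and 2.86 (1.88 to 4.43) for MCSF. Latrunculin A had 6 of the 16 sites higher and 2 lower, where the whole table had 30.1% and 15.7%. The 2 lower are the neighbouring sites above that passed the filter only through MCSF + IL-4, with intervals that hold 1. With the trend removed 3 were higher and 3 lower, against 19.2% and 19.7%.

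**Figure D2:**
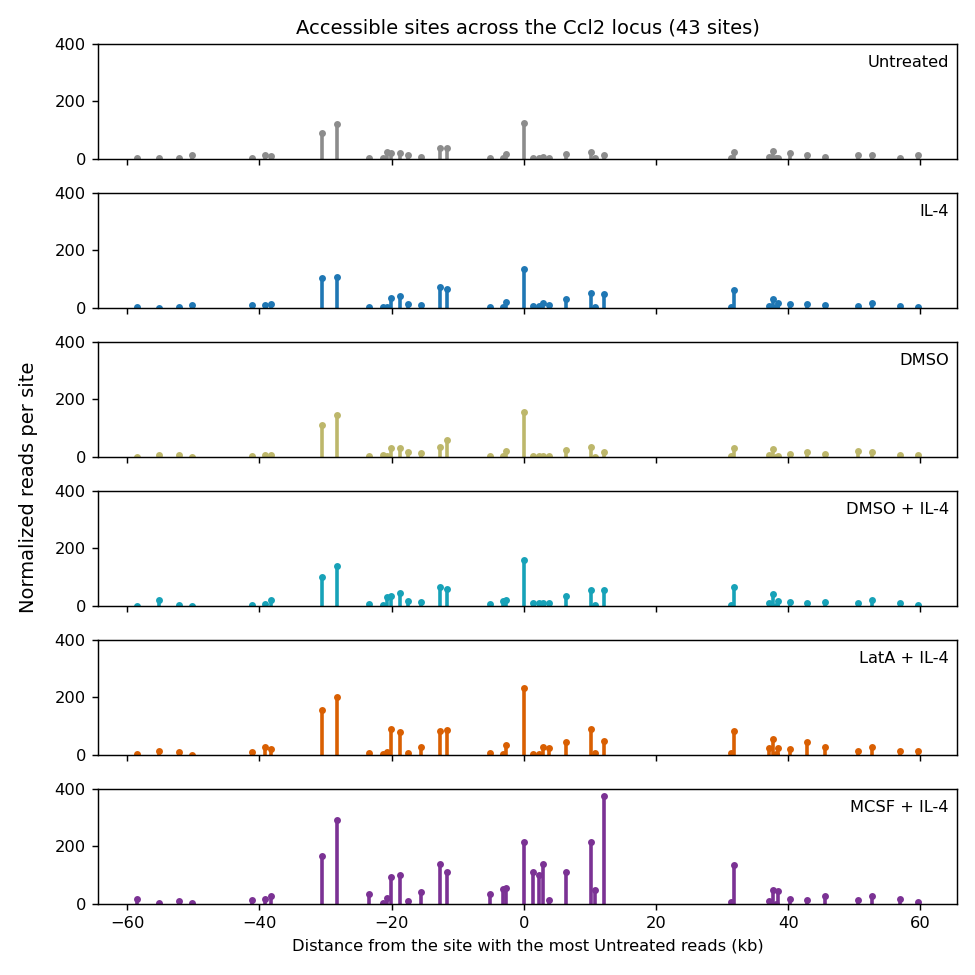
Each line is 1 of the 43 sites of the Ccl2 locus, at its distance in kb from the site with the most Untreated reads (x axis), with its normalized reads (y axis, from 0) in the 6 libraries (panels). To the right of that site, in a stretch 11.9 kb long, the MCSF + IL-4 panel has tall lines, up to 377 normalized reads, where the Untreated and DMSO panels have almost none.

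At Tnf, accessibility was higher with both treatments across most of the locus. The locus sum was 2.14-fold higher in LatA + IL-4 than in DMSO + IL-4 (1.94 to 2.36; 1426 against 569 reads) and 1.91-fold higher in MCSF + IL-4 than in IL-4 (1.73 to 2.11; 1054 against 659 reads). Of the 15 compared sites, 12 were higher with latrunculin A, 14 with MCSF and 11 with both, and 0 were lower with either. Their median log2 ratios were 1.02 (latrunculin A) and 0.82 (MCSF), against 0.20 and 0.16 over all compared sites. With the trend removed, 11 sites were higher with latrunculin A and 10 with MCSF, against 19.2% and 19.5% of the whole table. The filter on the 4 other libraries left 12 and 14 of 15, against 28.5% and 27.4%. With the controls exchanged, 14 sites were higher in LatA + IL-4 than in IL-4 (34.4% of the whole table) and 11 in MCSF + IL-4 than in DMSO + IL-4 (24.9%). The window held 23 peaks in LatA + IL-4, 22 in MCSF + IL-4 and 15 to 18 in the other libraries. Peak numbers of the whole libraries are not given here, so these counts are a description. At Il6 each treated library held 18 peaks, and the other libraries 17 to 25.

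The same locus had lower sums in the IL-4 libraries. The locus ratio was 0.858 (0.777 to 0.947) without vehicle and 0.728 (0.656 to 0.806) with DMSO, where DMSO against Untreated gave 1.28 (1.18 to 1.40). In IL-4, 3 of the 15 sites were lower than in Untreated and 0 higher, and in DMSO + IL-4, 8 were lower than in DMSO and 0 higher. The whole table had 8.88% lower and 20.8% higher in the first pair and 12.8% and 16.6% in the second. The 3 sites lower in both pairs stand against 2.38% of the whole table. DMSO + IL-4 is the numerator of 1 comparison and the denominator of the latrunculin A comparison, and IL-4 likewise for MCSF, so the values of those libraries enter both. How far low controls account for the treatment ratios was not tested. The locus sums of LatA + IL-4 and MCSF + IL-4 were 1504 and 1235, and those of the libraries without IL-4 were 754 in Untreated and 968 in DMSO. At single sites both treated libraries were above all 4 others at 8 of 15, against 30.1% of the whole table. The 8 include a site, described below, that passed the filter only through the treated libraries.

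The strongest Tnf site, at chr17:35301391-35302534, was lowest in both IL-4 controls and highest in LatA + IL-4, with MCSF + IL-4 below DMSO. It had 142 normalized reads in Untreated and 94.2 in IL-4, 180 in DMSO and 108 with IL-4 added, 244 with latrunculin A and 160.5 with MCSF. The ratio of IL-4 to Untreated was 0.663 (0.514 to 0.852) and that of DMSO + IL-4 to DMSO 0.598 (0.459 to 0.773). With latrunculin A the ratio was 2.26 (1.76 to 2.93) and with MCSF 1.70 (1.30 to 2.23). The next site by mean reads, at chr17:35378210-35379286, was lower with IL-4 as well, with 79.2, 48.1, 106, 69.3, 98.1 and 99.6 normalized reads. The site at chr17:35337381-35337809 was not, with 57.0, 55.0, 63.9, 71.8, 107 and 136, and there MCSF + IL-4 was highest.

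The sites with the largest ratios at Tnf had few reads in the control. At chr17:35334473-35334831 there were 14 reads in Untreated and 12 in IL-4, 18 in DMSO and 2 with IL-4 added, 57 with latrunculin A and 38 with MCSF. The site passed the filter only through the treated libraries, so that they are highest there is no finding. A peak was called there in these 2 libraries only. The ratio for latrunculin A was 24.3 (6.42 to 205), resting on the 2 reads of DMSO + IL-4, and that for MCSF was 3.78 (1.93 to 7.94). The site with the largest shared IL-4 difference, at chr17:35325152-35325634, had 29.6, 17.7, 36.9, 12.4, 52.7 and 25.8 normalized reads. Its IL-4 ratio was 0.335 (0.150 to 0.681) with DMSO, and 0.597 without vehicle with an interval that holds 1 (0.322 to 1.07).

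**Figure D3:**
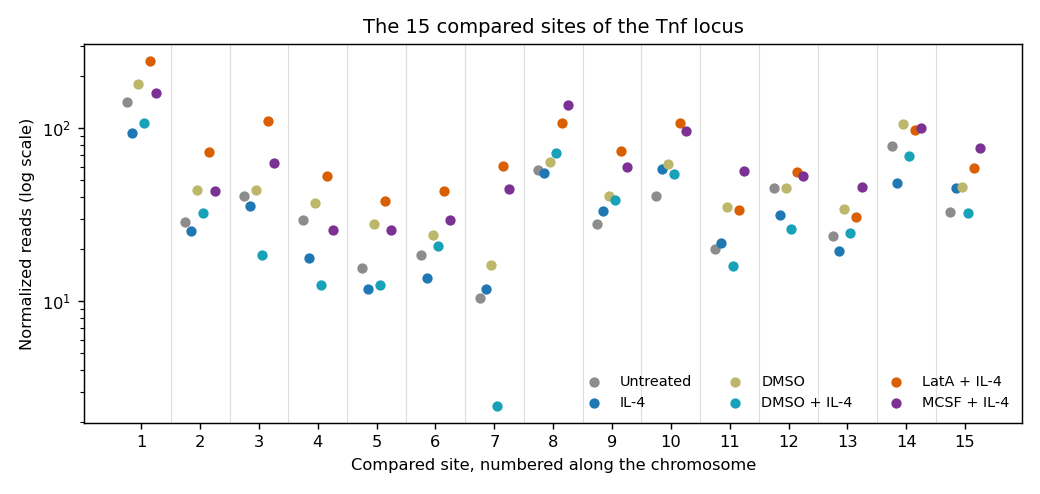
Points give the normalized reads (y axis, log scale) of the 6 libraries (colours) at the 15 compared Tnf sites, numbered along the chromosome (x axis). The LatA + IL-4 or the MCSF + IL-4 point is the highest at all sites but the 14th, where DMSO has 106 normalized reads.

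Il1b was higher with both treatments by about the same factor. The locus ratio was 1.44 (1.29 to 1.59) for latrunculin A and 1.48 (1.33 to 1.64) for MCSF, or 0.52 and 0.56 as log2 ratios. The whole table had like medians at its stronger sites. They were 0.49 and 0.48 at sites of 50 to 100 reads, and 0.56 and 0.59 at sites of at least 100. Of its 9 compared sites, 5 were higher with latrunculin A, 4 with MCSF and 3 with both, against 30.1%, 29.2% and 15.4% of the whole table. With the trend removed 1 was higher in each, against 19.2% and 19.5%, so the Il1b count was then below the background. With IL-4 the locus sums differed by less than their counting error, with ratios of 1.08 (0.973 to 1.20) without vehicle and 1.07 (0.961 to 1.20) with DMSO. Over the compared sites alone, the ratio without vehicle was higher and left this interval, as given under the processing.

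The strongest Il1b site, at chr2:129145624-129146294, was higher with IL-4 in both pairs. It had 37.7 normalized reads in Untreated and 82.5 in IL-4, 54.9 in DMSO and 109 with IL-4 added, 179 with latrunculin A and 146 with MCSF. The libraries without IL-4 were lowest and the treated libraries highest, without overlap. The IL-4 ratios were 2.19 (1.52 to 3.16) and 1.98 (1.41 to 2.80), and the ratios for latrunculin A and MCSF were 1.65 (1.27 to 2.15) and 1.78 (1.34 to 2.37). This was the only Il1b site called higher in both IL-4 pairs. At chr2:129163740-129164497 the order was similar, with 28.1, 77.5, 58.5, 75.5, 154 and 176 normalized reads. Its vehicle library was also above Untreated, by 2.08-fold (1.37 to 3.19), and its IL-4 ratio was 2.76 (1.85 to 4.18) without vehicle and 1.29 (0.894 to 1.86) with DMSO. The third site, at chr2:129198847-129199453, had 78.4, 73.6, 108, 66.8, 113 and 102 normalized reads. There DMSO and both treated libraries were close to each other.

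At Nos2, which had the fewest compared sites, the IL-4 ratios of those sites lay mostly below 1 and their treatment ratios mostly above. In IL-4 all 6 sites had log2 ratios below 0 against Untreated, from −0.62 to −0.15, where the median of all compared sites was 0.10. The share of all compared sites below 0 is not given here. Only 1 of the 6 was lower by 1.5-fold, against 8.88% of the whole table, and with DMSO 2 were lower, against 12.8%. The locus ratio was 1.01 (0.878 to 1.15) without vehicle and 0.874 (0.761 to 1.00) with DMSO. For latrunculin A it was 1.53 (1.33 to 1.75), with 5 sites higher and 1 lower, against 30.1% and 15.7% of the whole table. For MCSF it was 1.32 (1.14 to 1.52), with 4 higher and 0 lower, against 29.2% and 14.9%. With the trend removed, 4 were higher with latrunculin A (19.2% of the whole table) and 3 with MCSF (19.5%). With the controls exchanged, 5 were higher with latrunculin A (34.4%) and 2 with MCSF (24.9%). DMSO against Untreated gave a locus ratio of the size of that for MCSF, 1.32 (1.17 to 1.5). The strongest site, at chr11:78798086-78798740, had 90.3 normalized reads in Untreated and 72.6 in IL-4, 136 in DMSO and 94.1 with IL-4 added, 166 with latrunculin A and 87.9 with MCSF. MCSF + IL-4 lay within the range of the controls there, with a ratio of 1.21 (0.865 to 1.69). The site at chr11:78796202-78796850 was called lower in both IL-4 pairs, each 1.56-fold, with 47.4, 30.4, 54.0, 34.7, 82.3 and 51.5 normalized reads. At both pairs the interval reached about 1 (0.998 to 2.47 and 0.980 to 2.54). A narrow site at chr11:78682761-78682998 was higher with both treatments, 1.99-fold (1.17 to 3.49) and 2.88-fold (1.60 to 5.40), with 23.7, 16.7, 27.9, 26.0, 51.7 and 48.0 normalized reads.

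Il6 differed least. The locus ratios were 1.02 (0.927 to 1.12) and 1.07 (0.959 to 1.19) for IL-4, 1.22 (1.10 to 1.36) for latrunculin A and 1.14 (1.02 to 1.26) for MCSF. Among its 13 compared sites latrunculin A had 3 higher and 3 lower, MCSF had 4 higher and 0 lower, and 1 was higher with both. The whole table had 30.1% and 15.7%, 29.2% and 14.9%, and 15.4%, so the higher counts were near or below the background. With the trend removed, latrunculin A had 2 higher and 4 lower, against 19.2% and 19.7% of the whole table, and MCSF had 3 higher, against 19.5%. Their median log2 ratios were −0.22 (latrunculin A) and −0.15 (MCSF), below the 0.20 and 0.16 of all compared sites. The latrunculin A sum rested on 1 site, at chr5:30362437-30362926. It had 77.7, 126, 108, 99.0, 248 and 166 normalized reads, a ratio of 2.5 (1.93 to 3.27) for latrunculin A and 1.32 (1.04 to 1.69) for MCSF. Without it the log2 ratio of the locus was 0.04 in place of 0.29. The site called higher with both was at chr5:30339307-30339946, with 39.2, 46.1, 38.7, 48.3, 84.4 and 79.7 normalized reads. The libraries fell into 2 levels there, with ratios of 1.75 (1.18 to 2.63) and 1.73 (1.17 to 2.56). The wide site at chr5:30342384-30343731 did not share this pattern, with 56.2, 56.9, 45.9, 56.9, 38.0 and 55.1 normalized reads.

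Over the 5 loci, IL-4 alone had no common direction. Against Untreated, 15 of the 59 sites were higher in IL-4 and 7 lower, where the whole table had 20.8% and 8.88%. With DMSO, 11 were higher and 14 lower, against 16.6% and 12.8%. The Ccl2 locus held 11 of the 15 higher sites without vehicle and 8 of the 11 with DMSO, and none of its 16 sites was lower in either pair. Of the 8 sites higher in both pairs, which share no library, 7 were at Ccl2 and 1 at Il1b, and 8.73% of the whole table was higher in both. The 7 include the 3 sites that passed the filter only through MCSF + IL-4, whose ratios of IL-4 to Untreated rest on 5 against 2, 6 against 3 and 15 against 8 reads, with intervals that hold 1. The Ccl2 locus ratio was 1.32 (1.21 to 1.45) without vehicle and 1.30 (1.19 to 1.42) with DMSO. Its stretch of large MCSF ratios was higher with IL-4 too, 2.56-fold (1.96 to 3.36) and 2.23-fold (1.71 to 2.92), and the DMSO pair shares no library with the comparison that chose it. The 4 sites lower in both pairs were 3 at Tnf and 1 at Nos2, and 2.38% of the whole table was lower in both.

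**Figure D4:**
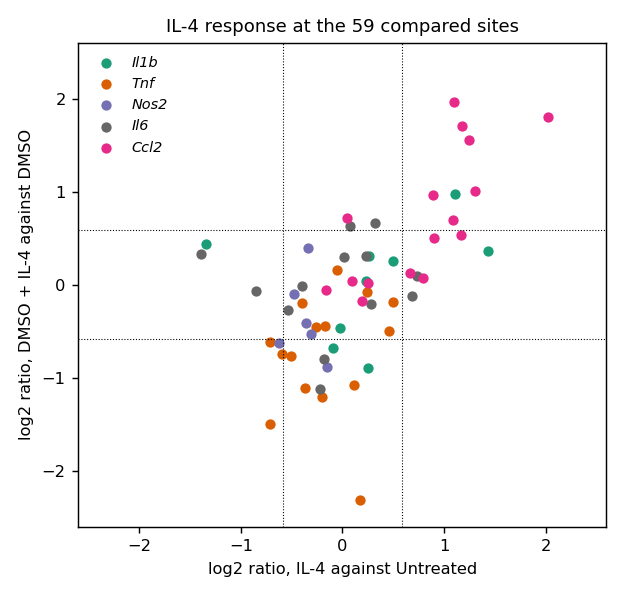
Each point is 1 of the 59 compared sites, coloured by locus, with its log2 ratio for IL-4 against Untreated (x axis) and for DMSO + IL-4 against DMSO (y axis); dotted lines mark 1.5-fold. The upper right corner holds 7 Ccl2 sites and 1 Il1b site, and the lower left corner 3 Tnf sites and 1 Nos2 site.

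Libraries that differed in vehicle only show the size of differences without a treatment of interest. DMSO had 13 of the 59 sites higher and 2 lower than Untreated, against 16.8% and 7.24% of the whole table. The 13 depended on the scale and became 6 with total reads, 8 with DESeq2 size factors, 6 with 5 reads added and 5 with the trend removed. In the vehicle pair with IL-4, 9 sites were higher and 4 lower with DMSO, against 11.2% and 9.80%. Tnf held 5 of the 13 sites higher with DMSO, and its locus ratio was 1.28 (1.18 to 1.40), below the 2.14 and 1.91 of the treatments but of like size to the IL-4 differences there. At Ccl2 the vehicle ratios were 1.19 (1.09 to 1.30) and 1.17 (1.07 to 1.28), and at Il1b 1.15 (1.04 to 1.27) and 1.14 (1.02 to 1.28). With 1 library per group, no treatment difference can be told apart from a difference between single libraries, whatever its size. The vehicle ratios were also of like size to those of the treatments at Nos2, and to those of IL-4 at Tnf and in the Ccl2 sum.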

How the data were processed

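Accessible sites of 6 BMDM libraries were analysed. Per the study's methods, the authors trimmed paired-end reads with Cutadapt, aligned them to mm9 with Bowtie2 (up to 10 alignments per read, which adds reads at repeats), removed duplicates, blacklisted and mitochondrial reads, called peaks with macs2 per library and counted reads with featureCounts; versions are not given in the sources used here. The deposited signal per site is CPM that the authors scaled with TMM factors in edgeR. Dividing a column by its smallest step gave whole reads for 100% of values (tolerance 1e-06, relative above 1 read). The deposited peak lists give a fold enrichment, a ratio to local background, and a −log10 q-value, used for description only.

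Normalized reads are reads over the effective library size of the table, times the geometric mean of the 6 sizes (Python 3.11.15, NumPy 2.4.6, SciPy 1.17.1, pandas 2.3.3, Matplotlib 3.10.9). Depending on the library, 20 normalized reads are 16.2 to 27.0 reads. Intervals are Clopper-Pearson on the share of the 2 libraries' reads. Locus sums use all sites of a window and no added read. Named sites are, per locus, the 3 with the highest mean reads and the one with the largest ratio past 1.5-fold in both IL-4 pairs and in both treatments, where the smaller log2 ratio sets the rank; others were named after their values were seen. The members, lists and rules were chosen with earlier results of these data known. A planned count of other inflammatory genes and of cell type markers was not made, as the table names no genes. GRCm38 positions were used only for the promoter sequences and the order of neighbouring genes. Alternatives were other scales (total reads; size factors by the DESeq2 formula), filters, added reads, trend removal by a running median over 2001 sites, exchanged controls and peak thresholds. The calculation of calls and intervals was tried on counts simulated with counting error only. Such counts hold no variation between replicate libraries, so this cannot show how the calls would hold in real libraries.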

Additional observations from a re-analysis of the deposited data

How the results depend on the processing

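No paired analysis was possible because each group is 1 library. With no replicate, a value is described as moved when it left its 95% counting interval, and a count when it changed by over 1.5 times. Neither a locus sum nor any of the 19 sites named by the rule changed direction, where past 1.5-fold, under an alternative tried. Of the log2 ratios of these sites recomputed under an alternative, 34 moved and 460 did not, 27 of the 34 with the trend removed and 7 with exchanged controls. The alternatives were not run on the other sites named, and the 3 under other observations turn with the control. At chr2:129177102-129177390, for example, MCSF + IL-4 had 16.4 normalized reads, IL-4 had 7.9 and DMSO + IL-4 had 30.9. The cause of each move was not tested.

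Locus log2 ratios stayed within their intervals with total reads or DESeq2 size factors as the scale. Removing the trend with reads gave, for latrunculin A, 0.28 at Il1b, 0.87 at Tnf, 0.12 at Il6 and 0.22 at Ccl2 (0.52, 1.09, 0.29 and 0.54 before), for MCSF 0.31 at Il1b, 0.71 at Tnf and 1.25 at Ccl2 (0.56, 0.93 and 1.55 before), and for DMSO against Untreated 0.03 at Il1b, 0.15 at Tnf and 0.00 at Ccl2. Exchanged controls gave 0.71 at Il1b, 0.81 at Nos2 and 0.77 at Ccl2 for latrunculin A, and 0.38 at Il1b and 1.33 at Ccl2 for MCSF. Compared sites alone gave Il1b 0.42 for IL-4, 0.68 with latrunculin A, 0.72 with MCSF and 0.42 for DMSO against Untreated, and Nos2 −0.39 and −0.44 for IL-4 without and with vehicle, 0.86 for latrunculin A and 0.72 for MCSF. The Il6 ratio for latrunculin A was 0.04 without its strongest site.

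Counts of member sites, higher and lower, moved most with the filter. With no filter they were 50 and 40 for IL-4, 47 and 40 for DMSO + IL-4 against DMSO, 84 and 31 for latrunculin A, 95 and 25 for MCSF, 48 and 35 for DMSO against Untreated, and 48 and 24 for DMSO + IL-4 against IL-4. At sites of at least 50 reads they were 9 and 3 for IL-4, 5 and 5 with DMSO, 14 and 0 for latrunculin A, 19 higher for MCSF, 5 and 0 for DMSO against Untreated, and 0 and 1 for DMSO + IL-4 against IL-4. Under these 2 filters the whole-table shares are given only for MCSF with no filter, 27.5% higher and 27.1% lower. The other counts show how the filter moves them and cannot be set against a background. The higher sites for DMSO against Untreated were 6 with 5 reads added (1 lower), 8 with DESeq2 size factors, 6 with total reads and 5 with the trend removed. Exchanged controls left 2 sites lower with latrunculin A and gave 3 lower with MCSF, where total reads gave 1. The filter on the 4 libraries outside each comparison, chosen after seeing the data, left all 12 counts within 1.5 times.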

Other observations

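At chr11:81848624-81849286 of the Ccl2 locus, the fold enrichment the authors' peak caller gave was 6.06 in MCSF + IL-4 and 15.1 to 18.5 in the other libraries, although normalized reads were 217 in MCSF + IL-4 against 126 in Untreated. Of the peaks in the 5 windows, 57.0% of those in MCSF + IL-4 overlapped a peak of IL-4, and 74.0% of those in IL-4 overlapped one of Untreated. The same shares over all peaks of these libraries are not given here, so neither can be called particular to the loci.

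A few sites differed between comparisons that address the same or a related question, and were picked for that. At chr2:129177102-129177390 of Il1b, IL-4 had 8 reads and the other libraries 14 to 29, with a log2 ratio of −1.34 to Untreated and 1.85 for DMSO + IL-4 against IL-4. At chr5:30376334-30376705 of Il6, the log2 IL-4 ratio was −1.39 without vehicle and 0.33 with DMSO, and the log2 ratio for latrunculin A was −1.17. At chr11:78807037-78807614 of Nos2, LatA + IL-4 was lower than its control (log2 ratio −0.96) and MCSF + IL-4 higher than its own (0.60), a difference that was not tested.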
